A study of Mus musculus with 8 samples.

Results

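The cells described here are mouse embryoid body cells that held at least 1 UMI (unique molecular identifier, 1 counted RNA molecule) in 5 or more of 13 contractile genes, Tnnt2, Tnnc1, Tnni1, Myh6, Myh7, Myl2, Myl3, Myl4, Myl7, Actc1, Actn2, Ttn and Ryr2, with at most 15% of their UMIs from mitochondrially encoded genes. They numbered 234 of 7589 cells within that mitochondrial limit and are called contractile cells below, or members in the plots. The measured UMIs of the 13 genes chose them, so values of those genes are given as a description. Single-cell RNA counts came from 1 library labelled TKO, the Tet triple knockout, and 1 library labelled WT, wild type, both at day 5 of differentiation. Both came from E14 mouse embryonic stem cells with an Nkx2-5 EmGFP reporter, kept on embryonic fibroblast feeders treated with mitomycin C; differentiation was started in hanging drops, which gave embryoid bodies, after leukemia inhibitory factor was withdrawn. The labels name neither the number of knockout clones nor which Tet exons were removed.

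Cardiac muscle contracts when calcium binds the troponin complex on the thin filament, whose core is actin, and lets myosin heads with their light chains pull on it. Titin spans the sarcomere as a spring, and calcium is released through the ryanodine receptor. In the early embryonic heart these genes are switched on by transcription factors such as Nkx2-5, Gata4, Mef2c, Tbx5, Hand2 and Srf in progenitors that include an Isl1-expressing second heart field population.

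With 1 library for each genotype and no replicate, no difference between the libraries could be tested, and all intervals are exact 95% intervals that cover counting error only. Levels are UMIs summed over the cells of a library and divided by their total (CPM, counts per 1000000 UMIs). They are not scaled by transcript length, so they are compared between groups of cells and not between genes. The tables held 33602635 UMIs in the TKO-labelled and 37537946 UMIs in the WT-labelled library, and the mitochondrial limit removed 26 and 3 cells. The median cell kept had 9679 UMIs in the TKO-labelled library and 7849.5 in the WT-labelled library. The table headers shared 21 barcode sequences, and the TKO-labelled header held 1 barcode more than the table had cells, so cells were taken by position. In contractile cells Tet1 had 42 UMIs in the TKO-labelled library and 2 in the WT-labelled library, Tet2 had 15 and 1, and Tet3 had 46 and 11. The levels were 19.9 and 7.34 CPM for Tet1, 7.12 and 3.67 CPM for Tet2, and 21.8 and 40.4 CPM for Tet3. These counts do not check the genotype label, because the deleted parts of the genes are not given.

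Contractile cells made up 208 of 3197 cells in the TKO-labelled library, 6.51% (5.68 to 7.42), and 26 of 4392 cells in the WT-labelled library, 0.592% (0.387 to 0.866). The TKO-labelled share was 10.99 times the WT-labelled share. When every cell was thinned to 5000 UMIs, which left out 299 TKO-labelled and 630 WT-labelled shallower cells, the shares were 4.04% (3.35 to 4.82) and 0.399% (0.223 to 0.657), a ratio of 10.1. The size of the ratio depended on the minimum number of genes. Cells with 3 or more of the 13 genes were 15.6% of the TKO-labelled and 4.01% of the WT-labelled library, and cells with 8 or more were 1.19% and 0.182%. The cause of the difference in shares was not tested.

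Cells with markers of other cell types were counted by the same rule. Among cells with at least 3 endothelial markers, 0 of 31 TKO-labelled cells qualified, which allows a share of up to 9.68%, and 0 of 146 WT-labelled cells, which allows up to 2.05%; their median depths were 12948 and 7510.5 UMIs. Among globin-rich cells, 0 of 10 qualified in the TKO-labelled library, and 0 of 427 in the WT-labelled library, which allows up to 0.703%. Epithelial cells with Epcam, Cdh1 and Cldn6 UMIs together qualified in 8 of 804 cases in the TKO-labelled library, 0.995% (0.431 to 1.95), and in 0 of 85 in the WT-labelled library, at median depths of 11702.5 and 9222 UMIs. These 8 cells are kept among the 208. Of the contractile cells, 18 of 208 TKO-labelled (8.65%) and 0 of 26 WT-labelled lay in the top 6% of Scrublet doublet scores within their library, and Scrublet itself called 2 and 0 of them doublets.

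**Figure D1:**
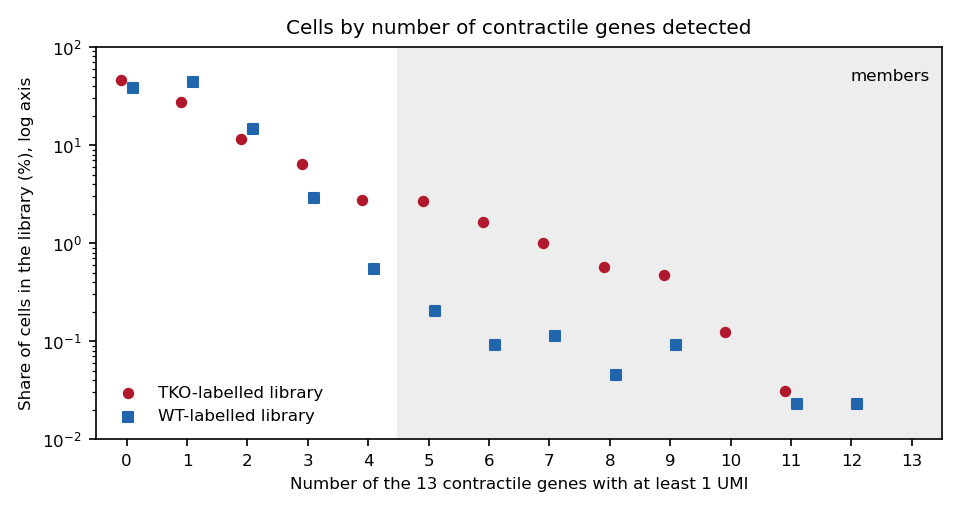
Share of cells in each library (percent, log axis) by the number of the 13 contractile genes with at least 1 UMI, TKO-labelled as circles and WT-labelled as squares; the grey field marks the member cells. With 5 genes or more the TKO-labelled point lies above the WT-labelled one at each number that both libraries reach, and the cell with the most genes, 12, is WT-labelled.

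The contractile cells of the TKO-labelled library were more numerous, but the median share of UMIs from the 13 genes was lower in them. The 13 genes took 0.0358% to 6.39% of a cell's UMIs in the 208 TKO-labelled contractile cells, with a median of 0.312%, against 0.0157% to 4.74% with a median of 0.660% in the 26 WT-labelled ones. The groups overlapped over nearly their whole ranges. Most TKO-labelled contractile cells stood near the minimum: 138 of 208 (66.3%) had 5 or 6 genes, with a median share of 0.254%, and 70 (33.7%) had 7 or more, with 0.496%. In the WT-labelled library 13 cells had 5 or 6 genes, with a median share of 0.438%, and 13 had 7 or more, with 1.36%. Just inside the rule, the 85 TKO-labelled and 9 WT-labelled cells with exactly 5 genes had median shares of 0.238% and 0.341%. Just outside it, the 87 and 24 cells with exactly 4 genes had 0.120% and 0.0619%.

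Depth per contractile cell differed less between the libraries than these shares did. The cells had medians of 9214.5 UMIs and 2826.5 genes per cell in the TKO-labelled library and 7619.5 UMIs and 2375 genes in the WT-labelled library, 3.90% and 3.49% mitochondrial UMIs, and 29.7% and 33.9% UMIs from ribosomal protein genes. All sums over WT-labelled contractile cells rest on 272397 UMIs, against 2105759 in the TKO-labelled ones. The deepest WT-labelled contractile cell alone held 44682 UMIs, 16.4% of that sum, with 5 contractile genes that took only 0.0157% of its UMIs. The deepest TKO-labelled one held 25794 UMIs, 1.22% of its sum. A gene without a UMI in the contractile cells could lie at up to 1.42 CPM in the TKO-labelled and 11.01 CPM in the WT-labelled library, the limit that a count of 0 allows.

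**Figure D2:**
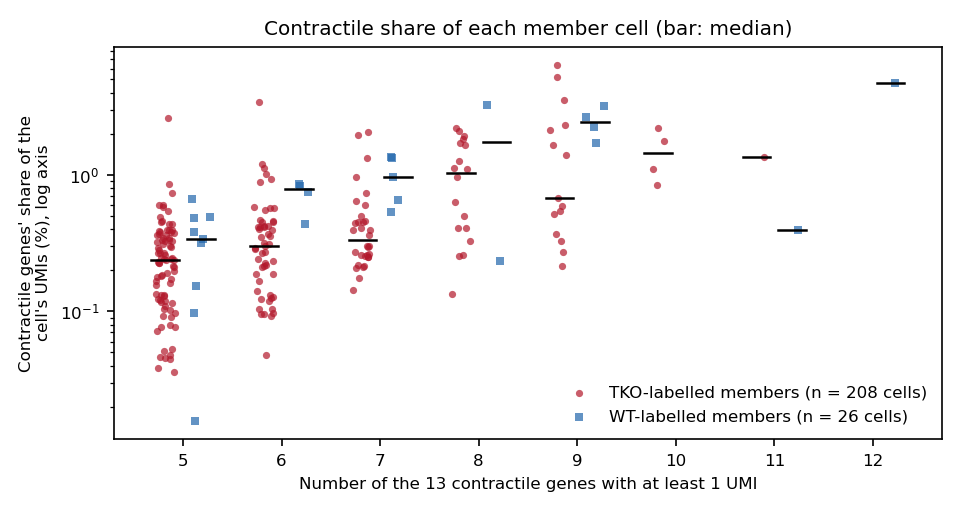
Share of each contractile cell's UMIs that came from the 13 genes (percent, log axis) by the number of those genes detected, for 208 TKO-labelled cells (circles) and 26 WT-labelled cells (squares), with bars at the medians. At 5 genes the TKO-labelled median is 0.238% and the WT-labelled median 0.341%, and the lowest point is the WT-labelled cell at 0.0157%.

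Among the genes of the rule, Tnnt2 was close between the libraries, and the other troponins, the light chains Myl3, Myl4 and Myl7, titin and cardiac actin were lower in TKO-labelled contractile cells. Tnnt2, the troponin subunit that binds tropomyosin, had 877 CPM in TKO-labelled contractile cells and 925 CPM in WT-labelled ones, a ratio of 0.948 (0.830 to 1.09). It was seen in 197 of 208 and 26 of 26 cells, with a median of 5.5 UMIs per cell in both libraries. Tnni1, the slow skeletal and embryonic form of the inhibitory subunit, had 952 CPM in TKO-labelled and 1164 CPM in WT-labelled contractile cells, a ratio of 0.818 (0.726 to 0.924). The other cells had 73.6 CPM of it in the TKO-labelled and 183 CPM in the WT-labelled library. Tnnc1, the calcium-binding subunit, had 303 and 452 CPM, a ratio of 0.671 (0.552 to 0.821).

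Myl7, the atrial regulatory light chain that marks early heart tube muscle, had 1418 CPM (1368 to 1470) in TKO-labelled contractile cells and 2885 CPM (2687 to 3095) in WT-labelled ones, a ratio of 0.492 (0.454 to 0.532). Cells ranged from 0 to 291 UMIs with a median of 3 in the TKO-labelled library and from 0 to 223 with a median of 15.5 in the WT-labelled library. Myl7 was detected in 168 of 208 and 22 of 26 contractile cells, shares that the rule partly fixes. Among epithelial cells outside the rule, Myl7 was seen in 53 of 796 TKO-labelled (6.66%) and 11 of 85 WT-labelled cells (12.9%). It was seen in 1 of 10 and 5 of 427 globin-rich cells. Myl4, the embryonic and atrial essential light chain, had 643 CPM in TKO-labelled and 1593 CPM in WT-labelled contractile cells, a ratio of 0.404 (0.362 to 0.451), in 178 and 25 cells. Ttn had 244 and 565 CPM, a ratio of 0.432 (0.360 to 0.520), in 156 and 19 cells.

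Actc1, the actin of the fetal heart, and Myl3, the ventricular essential light chain, rested on few cells. Actc1 had 52.7 CPM in TKO-labelled and 360 CPM in WT-labelled contractile cells, a ratio of 0.147 (0.111 to 0.194), from 24 and 13 cells with a UMI. A single cell held 25.2% of the Actc1 UMIs in the TKO-labelled library and 56.1% in the WT-labelled library. Myl3 had 77.4 and 286 CPM, a ratio of 0.270 (0.205 to 0.359), from 53 TKO-labelled cells and 4 WT-labelled cells. The top 3 cells held 37.4% of its TKO-labelled and 97.4% of its WT-labelled UMIs, so the WT-labelled level is that of 3 cells.

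The heavy chains and calcium release channel were thin. Myh7, the slow heavy chain that dominates the embryonic heart tube, had 68.4 CPM in 80 TKO-labelled contractile cells and 121 CPM in 12 WT-labelled ones, a ratio of 0.564 (0.384 to 0.851). Myh6, the heavy chain of atrial and adult mouse muscle, had 14.2 and 11.01 CPM in 25 and 2 cells, and Ryr2, the ryanodine receptor, had 19.9 and 22.0 CPM in 37 and 5 cells. Myl2, the ventricular regulatory light chain, had 14 UMIs in the TKO-labelled library and 0 in the WT-labelled one, and Actn2, the Z-disc actinin, had 2 and 6 UMIs. Neither gene adds to the direction of the others at these counts.

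**Figure D3:**
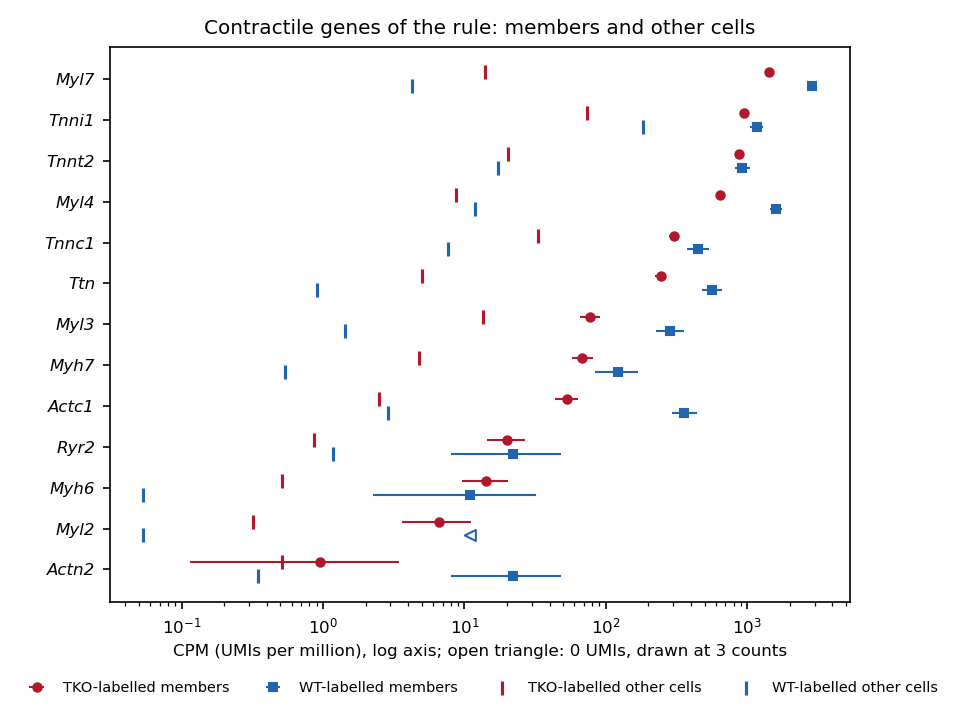
Level of the 13 genes of the rule (CPM, log axis) in contractile cells of the TKO-labelled (circles) and WT-labelled (squares) library with exact 95% Poisson intervals, and in the other cells of each library (ticks); an open triangle marks 0 UMIs, drawn at 3 counts. Tnnt2 points nearly coincide, at 877 and 925 CPM, while Myl7, Myl4, Ttn, Myl3 and Actc1 lie lower in the TKO-labelled contractile cells.

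Several of these ratios turned at lower minimums of the rule. With a minimum of 3 genes, the log2 ratio of TKO-labelled over WT-labelled contractile cells was 0.46 for Myl7, 0.57 for Ttn, 0.14 for Myl3 and 0.17 for Tnni1; at 4 it was -0.55, -0.55, -1.21 and -0.02, and at 6 it was negative for all 4. Tnnc1 had 0.81 at a minimum of 3, 0.06 at 4 and -0.73 at 6. Myl4 and Actc1 were negative at each of these minimums. In the cells outside the rule Myl7 was 3.23 (2.69 to 3.90) times and Ttn 5.48 (3.76 to 8.19) times as high in the TKO-labelled library.

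Promoter sequence is shown for the light chain and actin genes that lay 2-fold or more lower in TKO-labelled contractile cells, so that the letters they share can be read beside their levels. The windows are the 250 bases before the RefSeq start in GRCm38.p6, written 5′ to 3′ on the gene's strand: chr11:5898783-5899032 on the minus strand for Myl7, chr11:104550413-104550662 on the plus strand for Myl4, chr9:110763428-110763677 on the plus strand for Myl3 and chr2:114052876-114053125 on the minus strand for Actc1. Capitals mark matches to the core NKX2-5 motif AAGTG or its reverse complement CACTT, to the M-CAT motif CATTCCT that TEAD factors bind, and to the CArG box that SRF binds.
Myl7: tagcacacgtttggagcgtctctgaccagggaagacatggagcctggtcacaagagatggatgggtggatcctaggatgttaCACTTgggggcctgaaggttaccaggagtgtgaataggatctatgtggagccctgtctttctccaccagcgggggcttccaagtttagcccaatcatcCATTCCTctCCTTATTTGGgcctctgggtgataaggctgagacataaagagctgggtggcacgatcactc
Myl4: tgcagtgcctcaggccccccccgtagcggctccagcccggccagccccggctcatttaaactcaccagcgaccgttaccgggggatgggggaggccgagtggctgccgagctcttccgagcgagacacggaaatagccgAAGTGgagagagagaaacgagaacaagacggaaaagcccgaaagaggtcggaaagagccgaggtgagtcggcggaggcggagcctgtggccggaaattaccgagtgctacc
Myl3: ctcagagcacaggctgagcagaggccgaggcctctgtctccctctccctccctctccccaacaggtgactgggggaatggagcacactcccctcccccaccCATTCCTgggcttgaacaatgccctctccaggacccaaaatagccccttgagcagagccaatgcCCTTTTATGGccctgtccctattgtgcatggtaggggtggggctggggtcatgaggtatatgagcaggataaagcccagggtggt
Actc1: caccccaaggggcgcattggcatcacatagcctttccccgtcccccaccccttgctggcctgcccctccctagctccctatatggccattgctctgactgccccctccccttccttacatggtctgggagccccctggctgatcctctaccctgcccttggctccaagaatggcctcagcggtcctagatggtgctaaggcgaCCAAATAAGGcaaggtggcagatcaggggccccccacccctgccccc
In Myl7 the matches begin 168 (CACTT), 70 (CATTCCT) and 61 (CArG box) bases before the start, in Myl3 149 (CATTCCT) and 85 (CArG box), in Myl4 111 (AAGTG) and in Actc1 47 (CArG box), and none of them overlap.

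The same search was run on both strands of 32851 promoter windows of 27025 genes. All 13 genes of the rule were found in the table, with 17 windows. A CArG box lay in 1.47% of all windows, which is 1.62% of genes, and in 3 of the 13 genes, Actc1, Myl3 and Myl7. CATTCCT lay in 4.51% of windows, 5.19% of genes, and in 4 of the 13, Myh6, Myl3, Myl7 and Tnnt2. AAGTG was in 40.7% of windows, 44.3% of genes, and in 6 of the 13. The GATA motif AGATAA was in 9.99% of windows, 11.4% of genes, and in 2 of the 13, Myl2 and Tnnt2. The T-box motif AGGTGT (11.8% of windows, 13.6% of genes) and the MEF2 motif TATTTTTA (2.45% and 2.84%) were each found in 1 of the 13, Tnni1. Ttn, also 2-fold or more lower in TKO-labelled contractile cells but not shown, had a match to none of these motifs. A match describes the letters only, and binding was not measured here.

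Muscle genes that the rule did not use were higher in contractile cells than in the other cells of the same library. Of 25 further sarcomere and muscle genes, 21 had at least 20 UMIs over contractile and other cells of the TKO-labelled library; all 21 were higher in contractile cells, 19 of them 2-fold or more, with a median log2 ratio of 3.31. In the WT-labelled library 18 of 19 were higher, 16 of them 2-fold or more, with a median of 2.54. Over all genes measured, 4.24% of 12901 were 2-fold or more higher and 13.4% lower in TKO-labelled contractile cells, with a median log2 ratio of -0.06. In WT-labelled contractile cells 9.19% of 12905 were 2-fold or more higher and 27.6% lower, with a median of -0.16. Contractile cells held far fewer UMIs than the other cells, 272397 against 37256783 in the WT-labelled library. Genes with few UMIs can therefore fall among the lower ones by counting error. With at least 100 CPM on the higher side, 45 genes were 2-fold or more higher and 30 lower in TKO-labelled contractile cells. In WT-labelled ones 31 were higher and 40 lower. The cells were chosen on related genes, so the muscle gene counts describe them and test nothing.

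Smyd1, a methyltransferase needed to assemble myosin, had 100 CPM in TKO-labelled contractile cells, 15.2 times (12.5 to 18.5) the other cells, and 58.7 CPM in WT-labelled ones, 26.7 times (14.6 to 46.0). Unc45b, the chaperone of myosin heads, was 7.07 (6.06 to 8.22) and 4.11 (2.56 to 6.27) times the other cells in the TKO-labelled and WT-labelled library. Nexn, an actin-binding Z-disc protein, was 8.38 (7.10 to 9.87) and 5.74 (4.25 to 7.59) times as high. These genes act in building or anchoring the filaments. Des, the muscle intermediate filament, was 9.95 (8.52 to 11.6) times the other cells in the TKO-labelled and 2.53 (1.68 to 3.68) times in the WT-labelled library. Mybpc3, cardiac myosin-binding protein C, had 69 UMIs in TKO-labelled contractile cells, 29.4 times (19.3 to 45.5) the level of other cells, and 7 UMIs in WT-labelled ones. Myocd, the coactivator of SRF, had 76 and 7 UMIs and was 22.7 (15.7 to 33.1) times the other cells in the TKO-labelled library. Levels in TKO-labelled and WT-labelled contractile cells were 32.8 and 25.7 CPM for Mybpc3 and 36.1 and 25.7 CPM for Myocd.

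Between the libraries these muscle genes did not share a direction. Of 18 measured in contractile cells, the TKO-labelled cells were higher for 8 and lower for 10, and the median log2 ratio was -0.19 (0.61 at a minimum of 3 contractile genes and 0.22 at 4); 1 gene was 2-fold or more higher and 3 were 2-fold or more lower. Over all 7974 genes measured in contractile cells 14.5% were 2-fold or more higher and 5.57% lower in TKO-labelled cells, and the median was 0.15. In simulated counts of these cells without a planted difference, 10.2% of 7728 genes passed 2-fold in either direction. Among genes with at least 100 CPM on the higher side, 38 were 2-fold or more higher and 65 lower. The muscle gene 2-fold or more higher was Acta1, skeletal actin, with 24 UMIs in TKO-labelled and 0 in WT-labelled contractile cells, 23 of the 24 in 1 cell. Among the lower 3, Csrp3, a muscle LIM protein, had 11.4 CPM in TKO-labelled and 121 CPM in WT-labelled contractile cells, a ratio of 0.0941 (0.0532 to 0.164), and was seen in 18 of 208 and 13 of 26 cells. Tpm1, tropomyosin, had 696 and 1479 CPM, a ratio of 0.470 (0.421 to 0.526). Cryab, a small heat shock protein of muscle, had 11.4 and 246 CPM; its other-cell levels lay as far apart, at 10.0 and 187 CPM. Of the assembly genes above, Smyd1 had a ratio of 1.71 (1.03 to 3.04) and Nexn 0.586 (0.431 to 0.810).

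Genes of the working heart beyond the filaments were mostly not seen. Nppa and Nppb, the natriuretic peptides of chamber muscle, Bmp10 of trabecular muscle, Kcnq1, a channel of the action potential, and Trdn, a partner of the ryanodine receptor, had 0 UMIs in contractile cells of both libraries. Hcn4, the pacemaker channel of the early heart, had 4 UMIs in TKO-labelled and 2 in WT-labelled contractile cells, Pln, the regulator of the calcium pump, 11 and 2, and Tnni3, the adult cardiac troponin I, 10 and 6. In the same order, the levels were 1.90 and 7.34 CPM, 5.22 and 7.34 CPM, and 4.75 and 22.0 CPM. All 6 WT-labelled Tnni3 UMIs were in 1 cell. The calcium pump itself, Atp2a2, had 60.8 CPM in TKO-labelled and 151 CPM in WT-labelled contractile cells, a ratio of 0.404 (0.282 to 0.589). It was 1.55 (1.28 to 1.86) times the other cells in the TKO-labelled and 4.10 (2.93 to 5.59) times in the WT-labelled library. Of 18 calcium, channel and coupling genes only 6 were measured between the libraries, 1 higher and 5 lower in TKO-labelled contractile cells, 2 of them 2-fold or more lower. Over all 7974 genes measured 5.57% were 2-fold or more lower. The name cardiomyocyte rests here on filament, assembly and transcription factor genes.

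Markers of other cell types were read in the same cells. Myf5, Myod1, Myog and Pax7 of skeletal muscle, Cdh5 of endothelium, Gata1 and Klf1 of blood, Sox17 of endoderm, Nanog of pluripotent cells and Myh11 of mature smooth muscle, named because they stood at 0, had 0 UMIs in contractile cells of both libraries. Other members of the same lists were seen. Skeletal troponin T, Tnnt3, had 54 UMIs in 41 TKO-labelled and 1 UMI in WT-labelled contractile cells, and skeletal troponin I, Tnni2, had 25 and 0. The 10 skeletal muscle genes summed to 44.2 CPM in TKO-labelled and 3.67 CPM in WT-labelled contractile cells, against 21.2 and 9.53 CPM in the other cells. Kdr, a VEGF receptor of endothelium and of mesoderm progenitors, had 69.3 CPM in TKO-labelled and 33.0 CPM in WT-labelled contractile cells, from 146 and 9 UMIs. The endothelial gene Egfl7 had 101 and 173 CPM, from 212 and 47 UMIs. The 12 endothelial genes summed to 186 and 264 CPM in contractile cells, against 214 and 298 CPM in the other cells. The 12 pluripotency genes, Tdgf1 among them, summed to 214 and 143 CPM in contractile cells, against 589 and 89.7 CPM in the other cells. Of 10 smooth muscle genes 5 were measured in contractile cells and all 5 were lower in the TKO-labelled library, 4 of them 2-fold or more, with summed levels of 312 CPM in TKO-labelled and 1725 CPM in WT-labelled contractile cells. The other cells had 131 and 1258 CPM. Over all 7974 genes measured between contractile cells 5.57% were 2-fold or more lower in the TKO-labelled library. Globins and other blood genes summed to 10.4 and 257 CPM in contractile cells and to 286 and 7784 CPM in the other cells, and fibroblast and matrix genes to 166 and 558 CPM, against 132 and 1170 CPM in the other cells. Endoderm genes summed to 431 CPM in TKO-labelled and 664 CPM in WT-labelled contractile cells, against 2178 and 1487 CPM in the other cells. Their part in the gene differences described here was not tested.

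Some cardiac transcription factors were higher in contractile cells of both libraries, and others took the level of their library. In the TKO-labelled library 13 of 20 listed factors and signals were higher in contractile than in other cells, 9 of them 2-fold or more, and 4 of 7 lower ones were 2-fold or more lower. In the WT-labelled library 14 of 17 were higher, 8 of them 2-fold or more. Over all genes measured, 4.24% were 2-fold or more higher and 13.4% lower in TKO-labelled contractile cells, and 9.19% were higher in WT-labelled ones. The lower counts can include genes with few UMIs, as given above. Mef2c, which acts directly on muscle promoters, had 652 CPM in TKO-labelled contractile cells, 6.49 times (6.09 to 6.92) the other cells, and 352 CPM in WT-labelled ones, 10.8 times (8.64 to 13.2). It was detected in 202 of 208 (97.1%) and 22 of 26 (84.6%) contractile cells, more cells than any light chain reached in the TKO-labelled library. Gata4, a partner of Nkx2-5, had 49.4 and 62.4 CPM, 3.15 (2.53 to 3.90) and 3.89 (2.25 to 6.29) times the other cells.

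Nkx2-5, the homeobox factor of the cardiac crescent whose reporter the line carries, had 67.9 CPM in TKO-labelled and 136 CPM in WT-labelled contractile cells, a ratio of 0.500 (0.346 to 0.739). It was 6.52 times (5.32 to 7.96) the other cells in the TKO-labelled and 55.6 times (36.9 to 82.3) in the WT-labelled library. In other cells the direction between the libraries was the reverse, with 10.4 CPM in the TKO-labelled and 2.44 CPM in the WT-labelled library. Cells with a Nkx2-5 UMI were 82 of 208 (39.4%) and 9 of 26 (34.6%) contractile cells. Outside the rule, epithelial cells had a Nkx2-5 UMI in 5.28% of TKO-labelled and 18.8% of WT-labelled cases, and globin-rich cells in 0 of 10 and 0 of 427. In the WT-labelled contractile cells 3 cells held 59.5% of the Nkx2-5 UMIs, and its log2 ratio, negative at the minimum of 5 genes, was 1.08 at 3, -0.29 at 4 and -1.61 at 6.

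Isl1, the factor of second heart field progenitors, followed the library. It had 127 CPM in TKO-labelled and 18.4 CPM in WT-labelled contractile cells, a ratio of 6.93 (2.93 to 21.5), and the other cells had a ratio of 6.63 (6.03 to 7.29). Contractile cells were 1.38 times (1.21 to 1.56) the other cells in the TKO-labelled and 1.32 times (0.425 to 3.09) in the WT-labelled library. Cells with UMIs of both Isl1 and Nkx2-5 were 51 of 208 (24.5%) TKO-labelled and 2 of 26 (7.69%) WT-labelled contractile cells. Isl1 without Nkx2-5 was found in 68 (32.7%) and 3 (11.5%), Nkx2-5 without Isl1 in 31 (14.9%) and 7 (26.9%), and neither in 58 (27.9%) and 14 (53.8%).

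The paired bHLH factors Hand1 and Hand2, named for their expression in heart and neural crest derivatives, went opposite ways. Hand1 had 26.6 CPM in TKO-labelled and 518 CPM in WT-labelled contractile cells, a ratio of 0.0514 (0.0370 to 0.0705), and was seen in 19 of 208 and 20 of 26 cells. The other cells had 47.2 and 633 CPM, so contractile cells were near their own library. Hand2 had 186 CPM in TKO-labelled and 103 CPM in WT-labelled contractile cells, a ratio of 1.81 (1.23 to 2.75), where the other cells had 43.8 and 88.3 CPM. In the TKO-labelled library contractile cells thus held 4.24 times (3.78 to 4.75) the Hand2 of other cells, and in the WT-labelled library 1.16 times (0.772 to 1.69).

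Gata6 had 330 CPM in TKO-labelled and 151 CPM in WT-labelled contractile cells, against 107 and 102 CPM in the other cells. The ratio between the libraries was 2.19 (1.60 to 3.08) in contractile cells and 1.05 (0.998 to 1.10) in the others. Tbx20, a T-box factor of heart tube muscle, had 38.0 CPM in TKO-labelled and 99.1 CPM in WT-labelled contractile cells, a ratio of 0.383 (0.245 to 0.617), close to the 0.333 (0.300 to 0.370) of the other cells. Tbx5, the T-box factor mutated in Holt-Oram syndrome, had 22 UMIs in TKO-labelled and 2 in WT-labelled contractile cells, or 10.4 and 7.34 CPM.

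Cells with more contractile genes also held more RNA of several genes outside the rule. For Mef2c the level at 0 to 2, 3 or 4, 5 or 6 and 7 or more contractile genes was 71.9, 349, 617 and 719 CPM in the TKO-labelled library and 30.7, 74.7, 218 and 531 CPM in the WT-labelled library. Nkx2-5 had 8.52, 26.9, 55.4 and 91.2 CPM in the TKO-labelled library over the same steps, and 2.45, 2.30, 12.8 and 299.9 CPM in the WT-labelled library. Its UMIs in WT-labelled contractile cells were nearly all in cells with 7 genes or more, 35 of 37. Smyd1 had 3.66, 32.2, 84.6 and 129 CPM in the TKO-labelled and 1.86, 9.19, 38.5 and 85.7 CPM in the WT-labelled library. Nexn had 10.7, 34.02, 85.3 and 155 CPM in the TKO-labelled and 31.3, 60.3, 135 and 257 CPM in the WT-labelled library.

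The progenitor genes did not follow these steps alike. Isl1 had 90.0, 114, 130 and 123 CPM in the TKO-labelled library and 14.4, 4.60, 19.3 and 17.1 CPM in the WT-labelled library, where the last 2 steps hold 3 and 2 UMIs. Hand1 had 47.6, 43.6, 35.0 and 10.9 CPM in the TKO-labelled library, lowest where contractile genes were most numerous, and 631, 679, 546 and 480 CPM in the WT-labelled library. Gata6 had 92.5, 233, 319 and 351 CPM in the TKO-labelled library and 102, 117, 154 and 146 CPM in the WT-labelled library. The steps share cells' depth with the rule, since deeper cells can show more genes; at 0 to 11 genes the median depth stayed between 7762 and 11059 UMIs in the TKO-labelled library. In the WT-labelled library it was 7023, 8005, 8917, 10844.5 and 10869.5 UMIs at 0, 1, 2, 3 and 4 genes, and lay between 7176.5 and 17179 at 5 to 12 genes, so depth went with the first steps there.

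**Figure D4:**
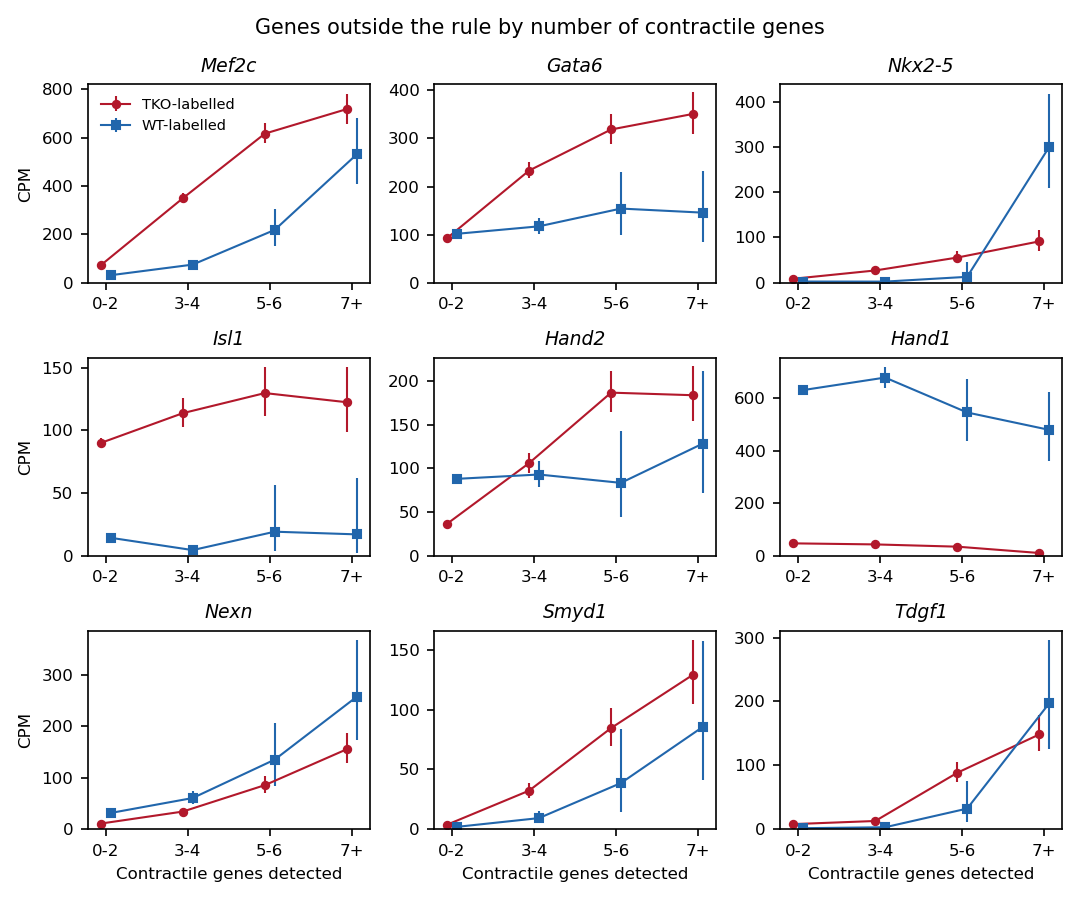
Level (CPM) of 9 genes outside the rule in cells with 0 to 2, 3 or 4, 5 or 6 and 7 or more contractile genes, for the TKO-labelled (circles) and WT-labelled (squares) library, with exact 95% Poisson intervals. Mef2c reaches 719 and 531 CPM at the last step, Hand1 stays below 50 CPM in the TKO-labelled and above 400 CPM in the WT-labelled library, and the WT-labelled Nkx2-5 level appears at the last step.

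By the size rule, Tdgf1 and Sfrp5 led the genes higher in contractile cells of both libraries. Tdgf1 (Cripto), a Nodal coreceptor that is expressed in the early myocardium as well as in pluripotent cells, had 109 CPM in TKO-labelled contractile cells, 13.2 times (10.997 to 15.8) the other cells, and 103 CPM in WT-labelled ones, 70.9 times (43.3 to 114). Those UMIs came from 47 of 208 and 7 of 26 cells, and over the steps of contractile genes Tdgf1 had 7.78, 12.7, 88.2 and 148 CPM in the TKO-labelled and 1.38, 2.87, 32.1 and 197 CPM in the WT-labelled library. The pluripotency genes Pou5f1 and Sox2 had 10 and 14 UMIs in TKO-labelled contractile cells and 0 and 2 in WT-labelled ones. By level, Sox2 had 6.65 CPM in TKO-labelled and 7.34 CPM in WT-labelled contractile cells. Sfrp5, a secreted Wnt inhibitor, had 144 and 106 CPM, 7.71 (6.69 to 8.87) and 32.0 (20.6 to 48.2) times the other cells. Gyg, glycogenin, which primes glycogen synthesis, was 2.74 (2.35 to 3.17) and 6.20 (4.92 to 7.72) times as high, with 102 CPM in TKO-labelled and 308 CPM in WT-labelled contractile cells. Mpped2, a metallophosphoesterase, was 3.97 (3.60 to 4.37) and 3.34 (2.71 to 4.08) times as high, and Map1b, a microtubule-associated protein, 3.32 (3.14 to 3.51) and 2.28 (1.88 to 2.73) times.

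At the low end of the size rule stood Slc2a1, Emb, Car2 and Krt8 among others. Slc2a1, the basal glucose transporter, had 70.8 CPM in TKO-labelled contractile cells, 0.172 times (0.146 to 0.203) the other cells, and 217 CPM in WT-labelled ones, 0.422 times (0.321 to 0.544). Emb, embigin, a partner of monocarboxylate transporters, was 0.147 (0.132 to 0.164) and 0.205 (0.0752 to 0.447) times the other cells, and Car2, a carbonic anhydrase, 0.132 (0.0955 to 0.178) and 0.0234 (0.00284 to 0.0847) times. Krt8, an epithelial keratin, was 0.382 (0.340 to 0.429) and 0.489 (0.386 to 0.611) times, and its WT-labelled log2 ratio was 0.17 at a minimum of 3 contractile genes. Of 15 glycolysis genes 5 were higher in TKO-labelled and 6 in WT-labelled contractile cells than in other cells. The respiratory chain list had 18 of 20 genes higher in TKO-labelled and 14 of 20 in WT-labelled contractile cells than in other cells, and median log2 ratios of 0.13 and 0.10. Over all genes measured, 44.2% were higher in TKO-labelled and 42.0% in WT-labelled contractile cells than in other cells.

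Between the libraries, each of the 12 genes at either end of the size rule in contractile cells had the same direction in the other cells. In the other cells of the TKO-labelled library 12.3% of 14166 genes were 2-fold or more higher than in those of the WT-labelled library and 11.5% were lower. Rgs5, a regulator of G-protein signalling known from pericytes, came first at the higher end of the size rule. It had 368 CPM in TKO-labelled and 40.4 CPM in WT-labelled contractile cells, a ratio of 9.10 (5.06 to 18.3), against 2.31 (2.16 to 2.48) in the other cells. It was seen in 181 of 208 and 6 of 26 contractile cells and was 4.89 times (4.501 to 5.30) the other cells in the TKO-labelled library. Ifitm1, an interferon-induced membrane protein of early mesoderm, had 713 and 187 CPM, a ratio of 3.81 (2.88 to 5.14), against 1.55 (1.51 to 1.59) in the other cells. Meis2, a TALE homeobox factor, had 250 and 99.1 CPM, a ratio of 2.52 (1.71 to 3.86), against 1.29 (1.23 to 1.36).

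Smooth muscle actin Acta2, which the embryonic heart also expresses, had 55.6 CPM in TKO-labelled and 1024 CPM in WT-labelled contractile cells, a ratio of 0.0542 (0.0433 to 0.0676), and was seen in 29 of 208 and 21 of 26 cells. In the other cells it was lower still in the TKO-labelled library, at 7.61 and 760 CPM. Contractile cells held 7.30 times (5.80 to 9.14) the Acta2 of other cells in the TKO-labelled and 1.35 times (1.19 to 1.52) in the WT-labelled library. Myl9, the smooth muscle regulatory light chain, had 6.17 and 195 CPM, a ratio of 0.0317 (0.0159 to 0.0590). Col1a2, a chain of type I collagen, had 2 UMIs in TKO-labelled and 36 in WT-labelled contractile cells, and 1 of the 8 WT-labelled cells with a UMI held 25 of them. The mesoderm factor Msx1 had 10.4 and 132 CPM, and the imprinted genes Dlk1, Mest and Phlda2 had 33.2 and 330 CPM, 51.8 and 437 CPM, and 32.3 and 297 CPM. Of 15 imprinted genes measured in contractile cells, 12 were lower in TKO-labelled cells, 5 of them 2-fold or more, and 3 were higher, against 17 of 19 lower in the other cells. Over all genes measured between the libraries, 59.6% of 7974 were higher and 5.57% were 2-fold or more lower in TKO-labelled contractile cells. In the other cells 59.4% of 14166 were higher.

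**Figure D5:**
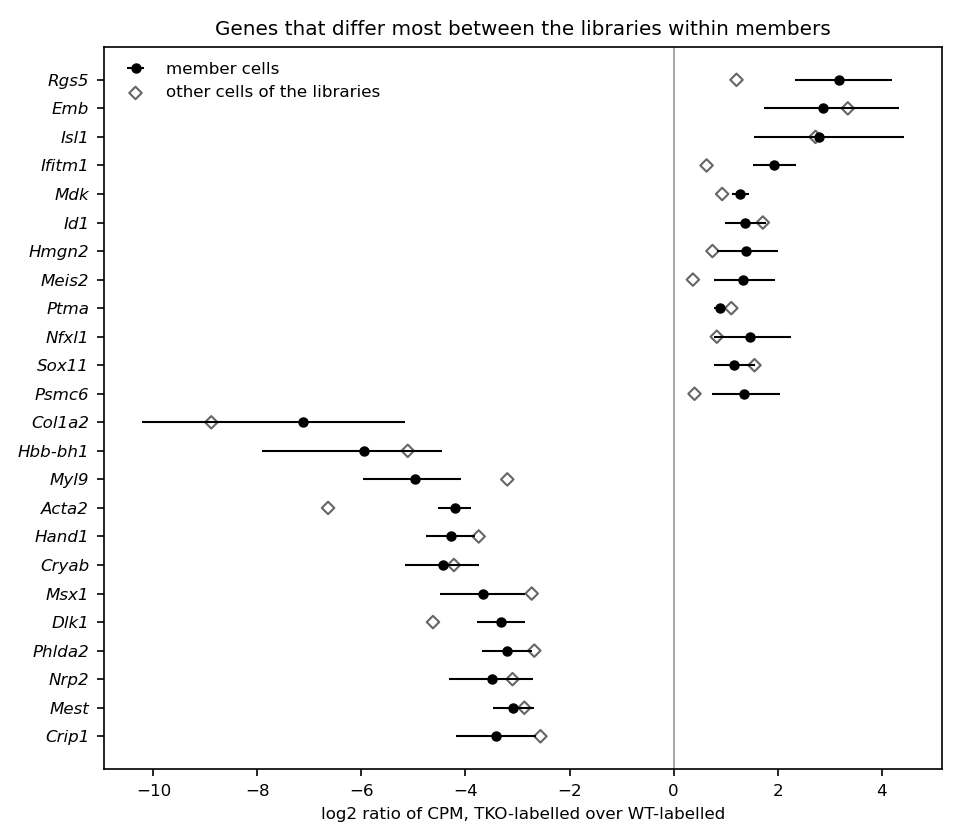
The log2 ratio of CPM, TKO-labelled over WT-labelled, for the 12 genes at either end of the size rule in contractile cells (filled circles with exact 95% intervals), and for the same genes in the other cells (open diamonds). Acta2 lies lower in the other cells (ratio 0.01001) than in contractile cells (0.0542), and Rgs5 and Ifitm1 lie to the right of their diamonds.

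Genes of the cell cycle differed in direction by phase. Of 15 genes of the G2 and M phases, 0 were higher and 15 lower in TKO-labelled contractile cells, 2 of them 2-fold or more, with a median log2 ratio of -0.76; in the other cells 3 were higher and 12 lower, with -0.25. The direction in contractile cells turned with the rule: the median was 0.27 at a minimum of 6 contractile genes and 0.25 without Tnni1 and Tnnc1 in the rule. Aurkb, a mitotic kinase, had 20.4 CPM in TKO-labelled and 51.4 CPM in WT-labelled contractile cells, and Cenpf, a centromere protein, 132 and 228 CPM, a ratio of 0.580 (0.439 to 0.777). Of 15 genes of the G1/S transition 13 were higher and 2 lower, with a median of 0.70 (0.60 with the gene at 0 UMIs on 1 side taken at its bound). In the other cells 13 were also higher and 2 lower, with a median of 0.30. Over all 7974 genes measured in contractile cells 59.6% were higher in TKO-labelled cells, and 5.57% were 2-fold or more lower. Slbp, the histone mRNA binding protein, had 153 and 77.1 CPM in contractile cells, a ratio of 1.99 (1.28 to 3.26). Each WT-labelled value here rests on a few of the 26 cells, such as 11 cells with a Cenpf UMI. Ccnd2, a D cyclin, was higher in contractile than in other cells of both libraries, 3.04 (2.81 to 3.28) and 2.13 (1.63 to 2.73) times.

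Contractile cells were also set beside cells outside the rule with UMIs of both Isl1 and Mef2c. Of all cells with both, 118 of 553 TKO-labelled cells (21.3%, 18.0 to 25.0) and 3 of 61 WT-labelled cells (4.92%, 1.03 to 13.7) were contractile cells. Set beside the 435 TKO-labelled and 58 WT-labelled such cells outside the rule, contractile cells held 1.57 and 1.93 times the Gata6 and 4.11 and 31.7 times the Smyd1. Nkx2-5 was 2.67 times as high in TKO-labelled contractile cells as in those cells, which had 25.5 CPM, and had 0 UMIs in the 58 WT-labelled ones. At least 3 endothelial markers were seen in 9 of the 435 TKO-labelled cells (2.07%) and in 13 of the 58 WT-labelled cells (22.4%). Isl1 and Mef2c, which chose the comparison cells, are not compared.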

How the data were processed

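The 2 deposited count tables, 1 for each library, held whole-number UMI counts of 27998 gene rows per cell, which the authors deposited without normalization; the submitters' processing notes name Seurat 3 and the mm10 build, with no role given, and the aligner is not given in the sources used here. Gene rows were matched by position, because 116 row names differed between the tables by a suffix; 56 symbols stood on more than 1 row, and 26709 row names were found in the gene name table. The 5hmC tracks of the series were not used here. UMIs were summed over contractile and other cells with Python 3.11.15, numpy 2.4.6, pandas 2.3.3 and scipy 1.17.1, and doublet scores came from scanpy 1.11.5. A gene was measured with at least 20 UMIs on both sides together and called at a 2-fold difference in CPM; log2 ratios used a prior count of 0.5. Levels have exact Poisson intervals, ratios exact binomial intervals and shares Clopper-Pearson intervals. No test was made, since each genotype had 1 library. The calculations were tested on simulated counts of the contractile cells of both libraries. There 10.2% of 7728 unchanged genes passed 2-fold, and 19 of 37 genes planted at 0.5-fold did.

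The text names the 13 genes of the rule, listed cardiac factors with at least 20 UMIs, up to 3 genes at either end of each other list and the 12 genes at either end by the bound of the ratio interval nearest 1, among those with at least 100 CPM on the higher side. Genes named as being at or near 0 UMIs, Sox2, Pou5f1, Tnnt3, Tnni2, Kdr, Egfl7 and the Tet genes were chosen after their values were seen. Some genes that the rule names are not reported here. The members and lists were chosen with earlier results of these data known. Alternatives changed the minimum number of genes, the genes of the rule, depth, the UMI minimum, the fold, normalization and the cells kept.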

Additional observations from a re-analysis of the deposited data

Results flagged for a closer look

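Each of the following pairs of ratios lay on opposite sides of 1, with intervals that exclude 1 in both; the difference between the ratios was not tested, since each genotype had 1 library. The first 4 concern the libraries, TKO-labelled over WT-labelled. Nkx2-5 had a ratio of 0.500 (0.346 to 0.739) in contractile cells and 4.26 (3.37 to 5.44) in the other cells. Its log2 ratio in contractile cells was 1.08 at a minimum of 3 contractile genes, the direction of the other cells, and -0.29 at 4, and 3 cells held 59.5% of its WT-labelled UMIs in contractile cells. Hand2 had 1.81 (1.23 to 2.75) in contractile cells and 0.495 (0.465 to 0.528) in the others. Gja1, the gap junction protein connexin 43, had 0.517 (0.296 to 0.959) in contractile cells and 2.65 (2.48 to 2.83) in the others; its log2 ratio in contractile cells was 0.38 at a minimum of 3 and -0.21 at 4. Ccnd1, a D cyclin, had 0.216 (0.100 to 0.484) in contractile cells and 1.41 (1.26 to 1.57) in the others, from 20 TKO-labelled and 12 WT-labelled UMIs in contractile cells.

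The others set contractile cells over the other cells of a library. Ccnd1 had 0.398 (0.241 to 0.619) in the TKO-labelled and 2.59 (1.33 to 4.56) in the WT-labelled library. Bmp7, a BMP ligand, had 0.679 (0.481 to 0.931) in the TKO-labelled and 7.64 (3.60 to 14.4) in the WT-labelled library, where 4 cells held 10 UMIs. Tagln, a smooth muscle protein, had 3.77 (2.33 to 5.89) in the TKO-labelled and 0.390 (0.157 to 0.804) in the WT-labelled library, and 24 of its 25 TKO-labelled UMIs were in 1 cell.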

How the results depend on the processing

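No paired analysis was possible because each genotype had 1 single-cell library, and for the same reason no library could be left out; no difference between the libraries has a replicate check. For the named genes past 2-fold, 4747 of 4765 recomputed log2 ratios kept their sign and 174 came below 2-fold. For list medians past 2-fold, 469 of 471 kept their sign. This agreement is partly fixed, since the UMI and CPM minimums cannot turn a gene's sign. The 10% mitochondrial limit left the G2 and M median between the libraries in contractile cells at -0.76. The medians of the other muscle, cardiac factor, smooth muscle and imprinted lists were also identical to every digit. The limit is therefore no check of these medians. Most signs that turned did so at another minimum of contractile genes or without Tnni1 and Tnnc1 in the rule. Values nearer to 0 could turn too, as given beside them; the median log2 ratio of the cardiac factors between the libraries, -0.25 in contractile cells by the rule used, was 0.29 at a minimum of 3, 0.36 at 4, 0.09 at 6 and 0.21 without Tnni1 and Tnnc1. Contractile cells were 6.51% of the TKO-labelled and 0.592% of the WT-labelled library as reported. Genes 2-fold or more higher and lower numbered 1159 and 444 between the libraries in contractile cells, 1738 and 1633 in the other cells, 547 and 1725 for contractile over other TKO-labelled cells and 1186 and 3556 for contractile over other WT-labelled cells. As given above, unequal UMI sums can place genes with few UMIs among the lower ones over other cells. Counting error alone put 10.2% of simulated unchanged genes past 2-fold between the libraries in contractile cells. The cause of the following changes was not tested, except that fewer or more genes enter when the UMI minimum, the fold or the CPM minimum changes.

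With a minimum of 3 contractile genes the shares were 15.6% and 4.01%, 812 genes were lower between the libraries, 1088 lower in contractile than other TKO-labelled cells, and 339 higher and 1078 lower in contractile than other WT-labelled cells. The log2 ratios between the libraries became 0.14 for Myl3, 0.46 for Myl7 and 0.57 for Ttn, and those over other WT-labelled cells 0.17 for Krt8, 0.11 for Mest and 0.015 for S100a10. With a minimum of 4 the shares were 9.23% and 1.14%, with 2206 genes lower over other WT-labelled cells. With a minimum of 6 the TKO-labelled share was 3.85%, the log2 ratios between the libraries were 0.77 for Aurkb and 0.19 for Cenpe, and those over other TKO-labelled cells -0.53 for Acta1 and -7.02 for Tagln. Without Tnni1 and Tnnc1 in the rule the shares were 2.44% and 0.342%, 764 genes were higher and 246 lower between the libraries, Aurkb had 0.64, Cenpe 0.13, Acta1 -5.32 and Tagln -7.00. On cells thinned to 5000 UMIs the TKO-labelled share was 4.04%, Acta1 had -0.36 and Tagln -2.04; without the deepest 5% of cells Tagln had -2.14.

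A minimum of 10 UMIs gave 720 genes lower between the libraries. A minimum of 50 gave 486 higher and 157 lower, and 1133 lower over other TKO-labelled cells. A minimum of 1 gave 4364 higher and 1767 lower between the libraries, 1184 and 5875 over other TKO-labelled cells, 8650 lower over other WT-labelled cells, and 3487 and 3403 in the other cells. At 1.5-fold the counts were 2121 and 1068 between the libraries, 1266 and 2691 over other TKO-labelled cells, 2180 higher over other WT-labelled cells, and 3178 and 2454 in the other cells. At 3-fold they were 528 and 151, 208 and 1134, 569 higher over other WT-labelled cells, and 1004 and 1013. Chosen after seeing the data, leaving out epithelial cells gave a TKO-labelled share of 8.36%, a median log2 ratio of the endoderm list between the libraries of -1.26 and Tagln -0.96. That endoderm median was 5.49 by the rule used, where 4 of the 6 genes measured had 0 UMIs on 1 side. With those genes taken at their bound it was 0.75. The list's summed level was lower in TKO-labelled contractile cells, at 431 against 664 CPM. A minimum of 100 CPM on the higher side, also added later, gave 38 and 65 genes, 45 and 30, 31 and 40, and 39 and 117, in the order of the comparisons with the other cells of both libraries last, and an endoderm median of -1.08. Leaving out the deepest contractile cell of each library moved no share or count by over 1.5 times.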
